A study of Mus musculus with 15 samples.

Results

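The comparison set colon libraries of mice given APX3330 against colon libraries of saline-treated mice labelled D48. The 3 APX3330 and 3 saline D48 libraries were those whose labels name these treatments, 6 of the 15 libraries of the series, and every gene of the count table was taken. The table lists 56859 genes, and 18038 of them passed the filter on low counts and were tested. The mice were male C57BL/6J, 6 to 10 weeks old, with no engineered allele named, and both groups were given azoxymethane (AOM), a carcinogen that alkylates DNA in the colon. They also drank dextran sulfate sodium (DSS), an agent harmful to the colon epithelium. Tumours are known to form in colons treated in this way. The AOM dose was 10 mg/kg, injected once at day 0. DSS at 2.5% followed in 3 periods, from day 7 to 11, from day 28 to 32 and from day 49 to 53. The APX3330 group received 25 mg/kg APX3330 into the peritoneum once daily on the DSS days. The saline D48 group received an equal volume of saline on the same days, and its label D48 was read as day 48, which comes before the third DSS period. The labels give the APX3330 libraries no day and call the saline D48 libraries cycle 1. Treatment and day of sampling therefore cannot be told apart in this comparison. The labels do not state that each library is a separate animal, so the spread behind the p-values may be technical. The rest of the series, Control, saline D27 and saline D100 with 3 libraries each, entered the fit and serves as background. Saline D27 and saline D100 carry the same AOM and DSS schedule with saline, and their labels were read as days 27 and 100. What the Control mice received is not settled by the labels.

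APX3330, also called E3330, is a small molecule that inhibits the redox function of APE1/Ref-1, the protein encoded by Apex1. APE1 has 2 known functions: it cuts DNA at abasic sites in base excision repair, and it reduces cysteines of transcription factors such as NF-kB, AP-1, HIF-1 and STAT3, which favours their binding to DNA. In an inflamed colon, NF-kB and AP-1 are known to drive cytokine, chemokine and matrix protease genes in epithelial, stromal and myeloid cells. In bulk tissue, fewer cells of a type and less RNA per cell cannot be told apart.

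Library depth was close between the groups, at 14987045 to 15346724 counts in APX3330 and 14948499 to 16452308 counts in saline D48. The libraries carried colon markers, with Muc2, the secreted gel-forming mucin, between 8490 and 12790 CPM (counts scaled to the same library size), and the small intestinal apolipoprotein gene Apoa4 was listed at 0 in all 6. Other genes of a small intestine list were present in all 6, with Apob at 55.1 to 95.5 CPM and Rbp2 at 5.27 to 9.46 CPM. Defa24 of that list had 0, 5.07 and 2.56 CPM in saline D48 libraries and at most 1.49 CPM in APX3330. Saline D48 replicates 2 and 3 also held transcripts of exocrine pancreas, a digestive gland outside the colon. Genes of a list of 40 acinar genes in the table took 0.177%, 0.186% and 0.135% of counts in APX3330 libraries, against 0.149%, 5.78% and 1.63% in saline D48 libraries 1, 2 and 3. In APX3330 this share came largely from Klk1, Sycn, Cela1 and Spink1, at means of 978.3, 343.6, 208.0 and 94.3 CPM, while Cela2a and Prss2 averaged 0.247 and 0.270 CPM. In all, 29 tested genes were more than 8 times as high in both saline D48 replicates 2 and 3 as in saline D48 replicate 1. Of these genes 22 were called lower in APX3330, and 17 were on the acinar list. Such genes were kept out of the leading rises and falls. Genes of squamous epithelium took 0.00109% to 0.00166% of counts in APX3330 libraries and 0.00302%, 0.0139% and 0.00582% in saline D48 libraries. Saline D48 replicate 2 was the highest of these 6 libraries for the keratins Krt5 and Krt14, at 24.9 and 37.1 CPM. Their means were higher in Control (44.5 and 52.6 CPM) and saline D100 (60.8 and 81.8 CPM), where libraries were uneven. The squamous share was 0.147%, 0.00158% and 0.0693% in Control libraries and 0.102%, 0.00157% and 0.00165% in saline D100 libraries. The part of these transcripts in the differences below was not tested beyond the fits without the libraries that hold them.

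APX3330 colons held fewer transcripts of acute inflammation, myeloid cells and extracellular matrix than saline D48 colons, and more transcripts of the mitochondrial genome and of a part of the genes of ion transport and of fat and drug metabolism. At an adjusted p below 0.05 in edgeR's quasi-likelihood test, 3557 genes were called, 19.7% of those tested, with 1697 higher in APX3330 (9.41%) and 1860 lower (10.3%). The groups of 3 did not overlap at all for 34.1% of tested genes. The falls were larger than the rises: the median log2 fold change (APX3330 over saline D48) was -0.93 among genes called lower and 0.50 among genes called higher, and 831 falls but 215 rises reached 1 on the log2 scale, together 5.80% of tested genes. The median of all tested genes was -0.01, which the scaling of the libraries sets near 0. Of the genes called lower, saline D48 had the highest mean of the 5 groups of the series for 79.6%, while APX3330 had the lowest for 50.6%. Of the genes called higher, saline D48 had the lowest mean of the 5 for 74.3%, while APX3330 had the highest for 50.5%. These shares describe where the called genes lie, since calling fixed the order of APX3330 and saline D48. The number of calls was 2129 without APX3330 replicate 2 and 2205 without saline D48 replicate 3. With both pancreas-bearing libraries set aside, leaving 1 saline D48 library that was assumed to vary like the others, 851 genes were called, of which 290 rises and 508 falls were among the calls above.

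Among genes that met the naming rule, 98 were higher and 257 lower, and the leading falls were genes of neutrophils, acute-phase proteins, proteases and repairing epithelium. Saa3, an acute-phase serum amyloid made in inflamed tissue (chr7:46711998-46715700, GRCm38), had 0.473, 0.0667 and 0.938 CPM in APX3330 libraries, against 16.9, 15.7 and 28.2 CPM in saline D48 libraries. Its level was 40.6-fold lower in APX3330 (log2 fold change -5.34 ± 0.519 SE, adjusted p = 3.35e-05). The saline D48 libraries were also above the other groups, where Saa3 averaged 0.312 ± 0.122 CPM in Control, 1.09 ± 0.451 in saline D27 and 1.20 ± 0.344 in saline D100 (SD, n = 3 each). Mmp3, the matrix protease stromelysin-1 (chr9:7445822-7455975), had 1.55, 1.27 and 1.74 CPM in APX3330 libraries, against 18.9, 14.2 and 28.8 CPM in saline D48 libraries (log2 fold change -3.76 ± 0.358, adjusted p = 3.08e-05). For both genes every APX3330 library lay under every saline D48 library, a separation that the naming rule required. Clca4b, a colon member of the calcium-activated chloride channel regulators (chr3:144910921-144932529), had 4.59, 7.07 and 7.10 CPM in APX3330 libraries, against 337.7, 577.1 and 318.5 CPM in saline D48 libraries. This 65.6-fold fall (adjusted p = 0.000150) was uncertain as to the copy, since Clca4a and Clca4b are near-identical, and Clca4a fell as well (log2 fold change -2.50 ± 0.495, adjusted p = 0.00301). S100a9, a subunit of the neutrophil protein calprotectin (chr3:90692632-90695721), had 2 counts in the 3 APX3330 libraries together and 591 in the saline D48 libraries, a ratio of 284 with a 95% counting interval of 78.2 to 2350.

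The rest of the leading falls were Hp, the haemoglobin-binding acute-phase protein haptoglobin, Cxcl5, a neutrophil-attracting chemokine, Slpi, an inhibitor of leukocyte proteases, Mcpt1, a protease of mucosal mast cells, Plet1, a surface protein of repairing colon epithelium, Il1b, the cytokine interleukin-1 beta, Wfdc18 and Ggt1, an enzyme of glutathione breakdown. Their folds ranged from 10.2-fold lower for Il1b to 52.0-fold lower for Mcpt1. Plet1 had 2.50, 3.00 and 3.62 CPM in APX3330 libraries, against 45.7, 41.3 and 35.4 CPM in saline D48 libraries, with little spread in either group. Il1b had 1.55, 3.00 and 2.75 CPM in APX3330 libraries, against 46.0, 10.9 and 18.1 CPM in saline D48 libraries, where replicate 1 was the highest. Ggt1 was less even, with 0.80 to 1.01 CPM in APX3330 and 2.98, 19.3 and 9.06 CPM in saline D48, where the highest value stood in a library with pancreatic transcripts.

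The leading rises were genes of varied function, several of them transporters. Slc30a10, a manganese exporter of the gut and liver (chr1:185454848-185468762), had 12.8, 44.4 and 58.4 CPM in APX3330 libraries, against 6.48, 5.53 and 1.28 CPM in saline D48 libraries (8.76-fold higher, adjusted p = 0.00604). Mptx1, a mucosal pentraxin of the colon (chr1:174330518-174332873), had 13710, 11600 and 5321 CPM in APX3330 libraries, against 1158, 3068 and 478.7 CPM in saline D48 libraries (6.51-fold higher, adjusted p = 0.00158). Mptx1 averaged 726.9 ± 37.5 CPM in Control, 7792 ± 947.7 in saline D27 and 9555 ± 1897 in saline D100 (SD, n = 3 each), so its saline D48 mean lay nearest to Control and its APX3330 mean nearest to saline D100. Ces1f, a carboxylesterase of lipid metabolism (chr8:93256236-93279747), had 28.4, 41.4 and 36.8 CPM in APX3330 libraries, against 11.5, 6.93 and 6.04 CPM in saline D48 libraries (adjusted p = 3.71e-05). The others were the sugar-phosphate transporter Slc37a2, the monoamine transporter Slc29a4, the transcription factor Foxn1, the chromatin protein Hmga2, the synaptic protein gene Rims4, Slc9a3 and Nr1d1, described below, and Ankrd40cl, between 3.68-fold and 7.31-fold higher.

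**Figure D1:**
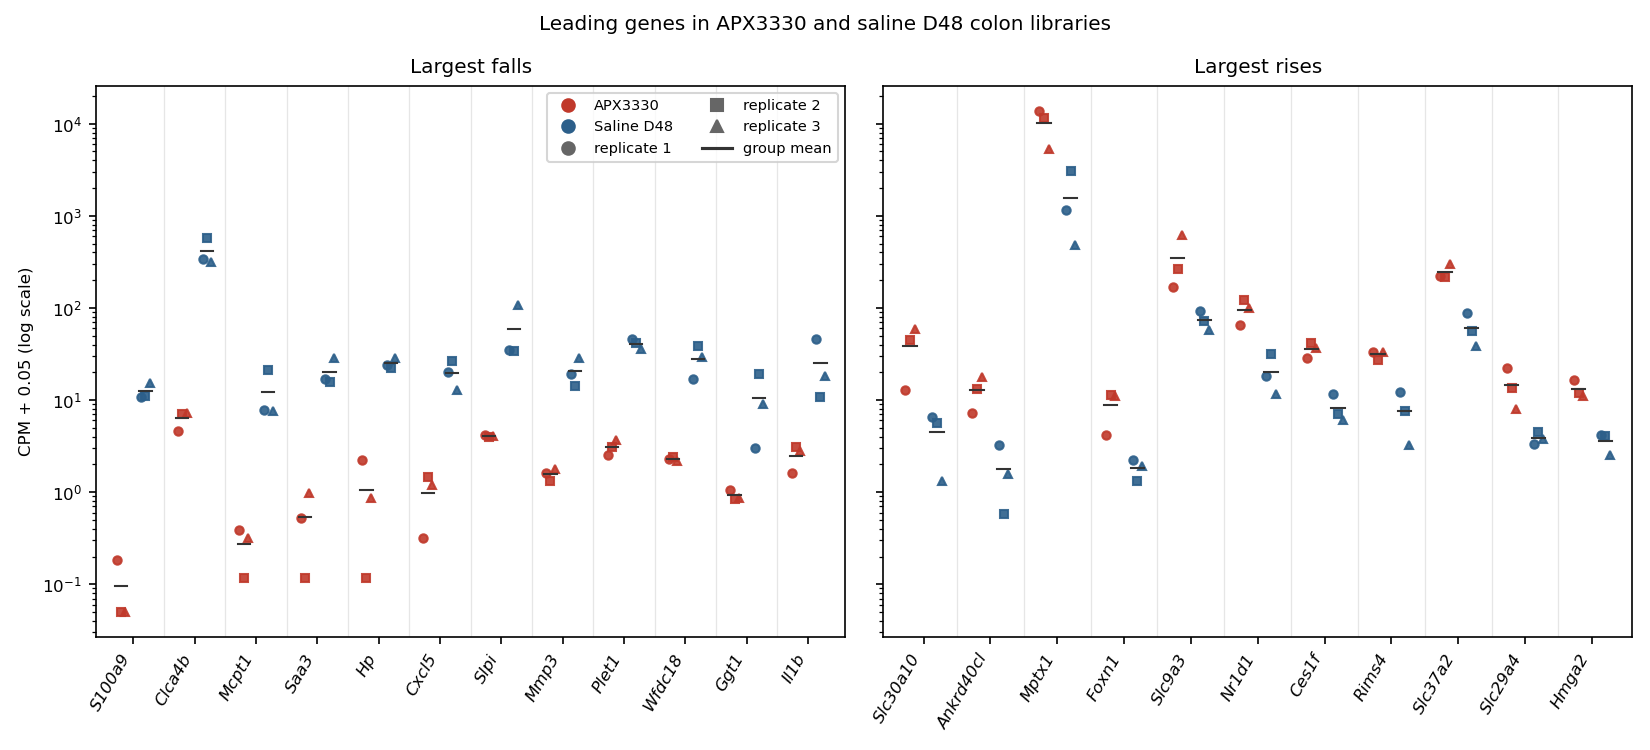
Levels of the leading falls and rises in each library, as CPM plus 0.05 on a log axis, with APX3330 (red) left of saline D48 (blue), replicates by symbol and bars at group means. No gene's groups overlap, which the naming rule required, and Clca4b shows APX3330 libraries at 4.59 to 7.10 CPM under saline D48 libraries at 318.5 to 577.1 CPM.

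Promoters of 5 inflammatory and repair genes called lower are shown, picked from a larger set of genes searched because they carry letters of the AP-1 or NF-kB motif. Whether these letters had any part in the falls was not tested. Each is the 150 bases before the gene's start in RefSeq (GRCm38.p6), written 5′ to 3′ on the gene's strand, with capitals marking TGANTCA (AP-1) or GGG, any 2 bases and TTTCC (NF-kB) on either strand.
Mmp3 (chr9:7445672-7445821, + strand): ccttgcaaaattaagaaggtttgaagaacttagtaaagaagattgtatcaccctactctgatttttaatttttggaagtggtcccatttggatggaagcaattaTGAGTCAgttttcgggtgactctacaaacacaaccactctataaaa
Mmp10 (chr9:7502192-7502341, + strand): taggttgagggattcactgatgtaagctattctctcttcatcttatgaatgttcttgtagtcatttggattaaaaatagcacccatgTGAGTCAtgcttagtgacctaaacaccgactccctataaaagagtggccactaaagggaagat
Plet1 (chr9:50494375-50494524, + strand): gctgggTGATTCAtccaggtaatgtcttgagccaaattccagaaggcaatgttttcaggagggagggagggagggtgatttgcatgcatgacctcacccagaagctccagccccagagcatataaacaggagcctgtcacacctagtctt
Cxcl1 (chr5:90891095-90891244, + strand): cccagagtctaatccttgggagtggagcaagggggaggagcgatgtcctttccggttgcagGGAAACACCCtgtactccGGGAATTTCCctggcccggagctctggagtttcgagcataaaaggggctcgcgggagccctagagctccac
Cxcl2 (chr5:90903749-90903898, + strand): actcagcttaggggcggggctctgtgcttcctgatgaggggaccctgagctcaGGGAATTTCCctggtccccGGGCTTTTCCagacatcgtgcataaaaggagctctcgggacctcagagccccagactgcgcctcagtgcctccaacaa
The matrix protease genes Mmp3 and Mmp10 hold the letters TGAGTCA 46 to 40 and 63 to 57 bases before the start, and Plet1 holds TGATTCA 144 to 138 bases before it. The AP-1 pattern searched leaves the middle base free, so TGATTCA is counted although it differs there from TGAGTCA. The AP-1 shares below use the same wide pattern. Cxcl1 and Cxcl2, which encode neutrophil-attracting chemokines, each hold 2 NF-kB matches, and GGGAATTTCC stands 71 to 62 bases before the start of Cxcl1 and 97 to 88 bases before that of Cxcl2. Both transcripts were scarce and highest in saline D48 replicate 1. Cxcl1 had 0.540, 0.333 and 1.27 CPM in APX3330 libraries, against 7.54, 1.33 and 2.67 CPM in saline D48 libraries (edgeR adjusted p = 0.0410). Cxcl2 had 11 counts in APX3330 and 159 in saline D48 (edgeR adjusted p = 0.0171). The motifs do not overlap each other in these windows. Of 12534 tested genes with a promoter in the table, 3.08% held an AP-1 match and 0.989% an NF-kB match, against 4.27% and 0.903% of all 27025 promoters. The share was 4.71% for AP-1 and 1.21% for NF-kB among the 1317 genes called lower, and 2.85% and 1.15% among the 1299 called higher. Neither motif's letters were in these windows of Saa3, Lcn2, Il1b, S100a8, S100a9, Tnf, Slpi, Clca4b or Nfkbie, which also fell. The search also found matches in genes not shown, among them Nfkb2. A missing match says nothing about a factor's binding.

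Apex1, the gene of the drug's target (chr14:50924968-50927139), was low in all libraries, with 3.31, 4.33 and 5.16 CPM in APX3330 and 4.23, 8.06 and 5.58 CPM in saline D48. The groups overlapped and the difference did not pass the test (log2 fold change -0.48 ± 0.286, adjusted p = 0.260). APX3330 acts on the protein, so this transcript is no check of the treatment. Of 18 tested genes of base excision repair 4 were called, 22.2% against 19.7% of all genes: 3 rose, Tdg, Smug1 and Neil3, which are DNA glycosylases that remove damaged bases, and 1 fell, the glycosylase gene Neil1. The clearest of these was Tdg, at 50.2, 60.5 and 58.8 CPM in APX3330 against 39.4, 41.9 and 38.7 CPM in saline D48 (log2 fold change 0.50 ± 0.0942, adjusted p = 0.00233). The list's median was -0.08, and with the replicate block 1 was called higher. Again 1 member was called higher, and 0 lower, without APX3330 replicate 3, saline D48 replicate 1 or saline D48 replicate 3.

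Genes of NF-kB itself were lower in APX3330. Of 17 tested subunit and feedback genes 10 fell and 0 rose, 58.8% against 19.7% of all genes, with a median log2 fold change of -0.56. Relb, a subunit of the alternative NF-kB pathway, had 50.3, 49.8 and 50.6 CPM in APX3330 libraries, against 80.9, 64.1 and 76.9 CPM in saline D48 libraries (adjusted p = 0.000826). Nfkb2, its partner, had 49.5, 51.5 and 57.6 CPM in APX3330 libraries, against 94.3, 71.7 and 100.5 CPM in saline D48 libraries (log2 fold change -0.75 ± 0.133, adjusted p = 0.00160). APX3330 libraries were nearly equal for Relb, and saline D48 replicate 2 was the lowest saline library for both genes. Nfkbie, which encodes an inhibitor of NF-kB that NF-kB induces, had 8.24, 7.94 and 8.37 CPM in APX3330 libraries, against 21.3, 13.8 and 30.3 CPM in saline D48 libraries (adjusted p = 0.000927). Icam1, an adhesion molecule for leukocytes, fell by 1.25 ± 0.183 on the log2 scale (adjusted p = 0.000530). Rel, the subunit most used in lymphocytes, fell by 1.01 ± 0.237 (adjusted p = 0.00823). Nfkbia, the classical inhibitor gene, had 71.9 to 77.0 CPM in APX3330 and 83.9 to 105.2 CPM in saline D48, without passing the test (adjusted p = 0.160). The number of members called lower was 5 without saline D48 replicate 3, 6 without APX3330 replicate 2 and 5 with both pancreas-bearing libraries set aside.

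For AP-1 and the immediate early genes, 10 of 20 fell and 0 rose, against 10.3% called lower among all genes (median log2 fold change -0.74). Jund, an AP-1 subunit, had 19.7, 25.1 and 20.4 CPM in APX3330 libraries, against 38.8, 43.3 and 44.2 CPM in saline D48 libraries (log2 fold change -0.95 ± 0.153, adjusted p = 0.000924). Jun had 59.8, 101.7 and 106.5 CPM in APX3330 libraries, against 164.6, 156.1 and 141.8 CPM in saline D48 libraries (log2 fold change -0.79 ± 0.160, adjusted p = 0.00351). The stress-induced factor Atf3 fell by 1.25 ± 0.298 (adjusted p = 0.00942), the subunit Fosb by 1.97 ± 0.513 (adjusted p = 0.0148) and the survival gene Ier3 by 1.02 ± 0.246 (adjusted p = 0.0102). Fos, the best known partner of Jun, overlapped between the groups, at 46.9, 114.3 and 120.1 CPM in APX3330 and 173.5, 140.2 and 81.9 CPM in saline D48 (adjusted p = 0.307). APX3330 replicate 1 was the lowest library for Jun, Atf3, Fosb and Fos. The list had 4 members called lower without saline D48 replicate 1, and 6 without APX3330 replicate 1 or without APX3330 replicate 3.

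In STAT3 signalling 6 of 14 tested genes were lower and 0 higher, 42.9% against 19.7% of all genes (median log2 fold change -0.57). Pim1, a kinase gene that STAT3 induces, had 16.2, 19.2 and 15.5 CPM in APX3330 libraries, against 35.0, 38.3 and 42.6 CPM in saline D48 libraries (log2 fold change -1.19 ± 0.157, adjusted p = 0.000267). Osmr, the oncostatin M receptor, fell by 0.96 ± 0.165 (adjusted p = 0.00128), Il22ra1, the epithelial receptor for interleukin-22, by 0.88 ± 0.180 (adjusted p = 0.00368), and Il6st, the shared receptor subunit gp130, by 0.39 ± 0.0917 (adjusted p = 0.00882). Il11, a stromal cytokine of this family, had 0.338, 0.267 and 0.335 CPM in APX3330 libraries, against 6.09, 1.67 and 4.24 CPM in saline D48 libraries (adjusted p = 0.0105). Socs3, the feedback inhibitor of STAT3, had 10.7, 23.3 and 15.8 CPM in APX3330 and 84.2, 52.0 and 59.1 CPM in saline D48 without passing the test (adjusted p = 0.109), although its groups did not overlap. Il6 had too few counts to be tested, and 3 members were called lower with both pancreas-bearing libraries set aside.

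HIF-1 targets showed no such count, since 3 of 17 fell, 1 rose, the stress gene Ndrg1, and the median was -0.09. Called members were 23.5% of the list, near the 19.7% of all genes. Without APX3330 replicate 1, 1 was called lower and 3 higher, and without any other single library, or with the replicate block, 0 were called higher. The falls were the glycolytic regulator Pfkfb3 (log2 fold change -0.93 ± 0.183, adjusted p = 0.00294), the glycolytic enzyme Eno1 (-0.40 ± 0.109, adjusted p = 0.0177) and the peptide hormone adrenomedullin, Adm (-1.24 ± 0.350, adjusted p = 0.0217). Among targets of NRF2, the main activator of antioxidant genes, 5 of 20 rose and 2 fell, against 9.41% and 10.3% of all genes (median 0.17). Those called higher numbered 3 without APX3330 replicate 3 or without saline D48 replicate 2. Gclm and Gclc, the subunits of the enzyme that starts glutathione synthesis, rose by 0.71 ± 0.0813 and 0.66 ± 0.113 on the log2 scale (adjusted p = 9.18e-05 and 0.00134). Gstm1, a glutathione transferase, had 258.8, 260.4 and 275.2 CPM in APX3330 libraries, against 162.2, 107.6 and 98.1 CPM in saline D48 libraries (log2 fold change 1.11 ± 0.148, adjusted p = 0.000285). The falls were Hmox1, haem oxygenase 1 (-1.17 ± 0.208, adjusted p = 0.00161), and Sod3, the extracellular superoxide dismutase, at 41.2, 32.1 and 31.6 CPM in APX3330 against 78.7, 92.8 and 83.1 CPM in saline D48 (adjusted p = 6.26e-05).

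**Figure D2:**
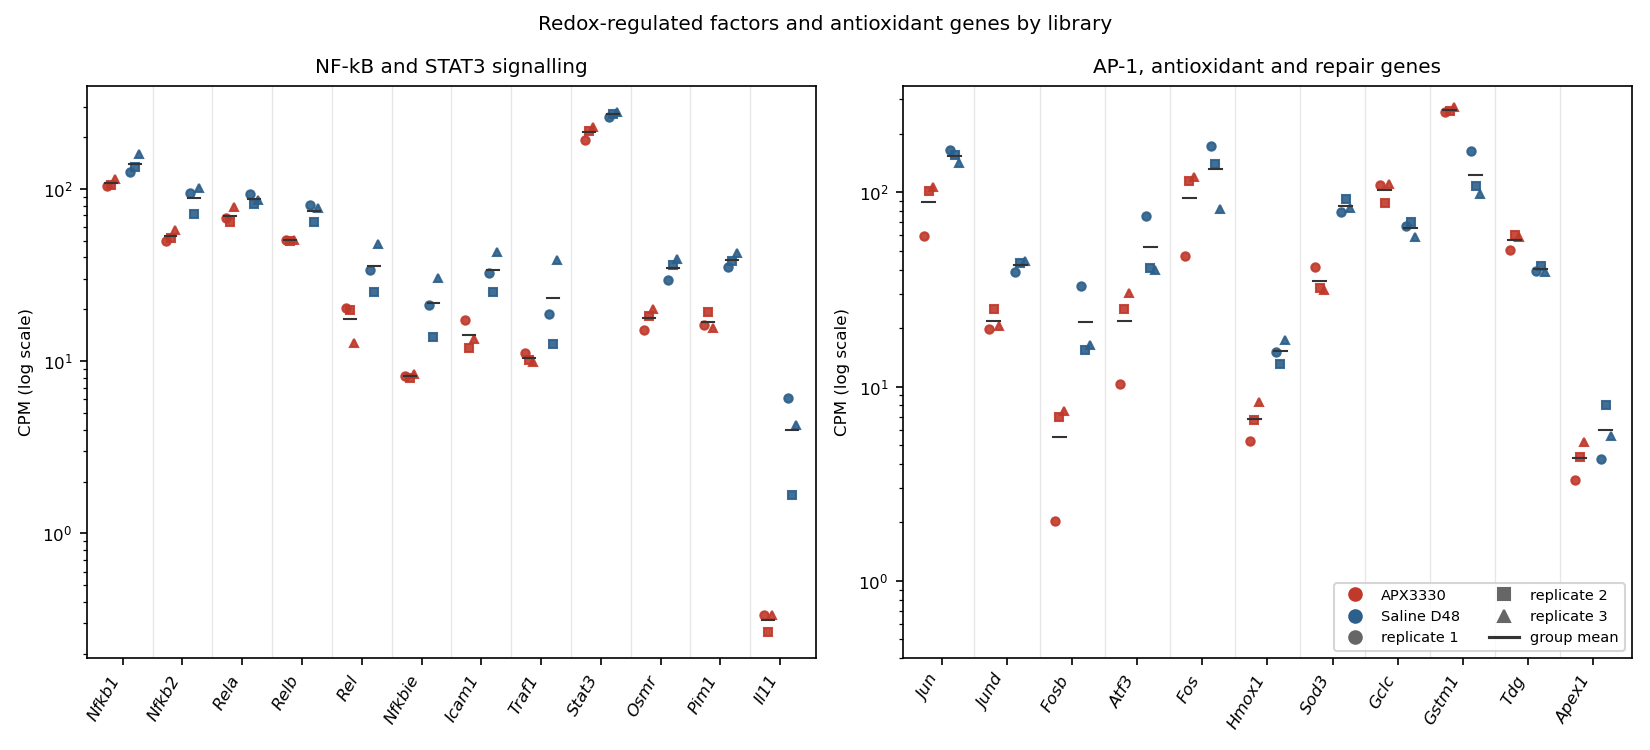
Levels in each library of genes of NF-kB and STAT3 signalling (left) and of AP-1, antioxidant and repair genes with Apex1 (right), as CPM on a log axis, APX3330 (red) left of saline D48 (blue), bars at group means. Relb lies at 49.8 to 50.6 CPM in APX3330 and 64.1 to 80.9 CPM in saline D48, Gstm1 lies higher in APX3330, and Fos and Apex1 overlap.

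With the exocrine pancreas list set aside, acute inflammation and neutrophil genes had the lowest median of the lists, a log2 fold change of -2.86. Of 24 tested members 21 fell and 0 rose, 87.5% against 19.7% of all genes. The summed share of counts was 0.0485%, 0.0766% and 0.0705% in APX3330 libraries, against 0.198%, 0.175% and 0.163% in saline D48 libraries, and 0.0594% to 0.146% in the other 9. Markers of neutrophils were among them: Csf3r, the receptor for granulocyte colony-stimulating factor, had 3.38, 4.60 and 3.28 CPM in APX3330 libraries, against 27.1, 18.1 and 24.2 CPM in saline D48 libraries (log2 fold change -2.62 ± 0.319, adjusted p = 0.000136). Lcn2, an iron-withholding protein of neutrophils and inflamed epithelium, had 2.91, 1.20 and 2.01 CPM in APX3330 libraries, against 11.0, 19.0 and 17.3 CPM in saline D48 libraries (adjusted p = 0.000205). The epithelial hydrogen peroxide generator Duox2 had 126.5, 172.6 and 184.3 CPM in APX3330 libraries, against 667.7, 659.5 and 508.3 CPM in saline D48 libraries (log2 fold change -1.93 ± 0.262, adjusted p = 0.000321). Its maturation factor Duoxa2 fell by 2.77 ± 0.323 (adjusted p = 0.000102), so both parts of this epithelial enzyme were lower. Nos2, inducible nitric oxide synthase, had 8.31, 8.0 and 9.45 CPM in APX3330 libraries, against 86.7, 64.7 and 89.8 CPM in saline D48 libraries (log2 fold change -3.23 ± 0.439, adjusted p = 0.000321). Tnf, tumour necrosis factor, had 1.55 to 2.00 CPM in APX3330 and 6.40 to 8.20 CPM in saline D48 (log2 fold change -2.08 ± 0.529, adjusted p = 0.0133). Il1rn, the interleukin-1 receptor antagonist, and Nox1, a colonocyte oxidase, did not pass (adjusted p = 0.186 and 0.595). With both pancreas-bearing libraries set aside, 14 members were still called lower and 0 higher.

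Among chemokine genes, 10 of 22 were called lower and 1 higher, against 10.3% and 9.41% of all genes, and 11 were not called (median log2 fold change -0.82). Cxcl16, made by myeloid cells and epithelium, fell by 1.21 ± 0.187 (adjusted p = 0.000712), Cx3cl1, fractalkine, by 0.57 ± 0.120 (adjusted p = 0.00444), and Ccl21a, which draws lymphocytes to lymphoid tissue, by 1.31 ± 0.220 (adjusted p = 0.00119), with reads that near-identical copies of this gene may share. Cxcl9, an interferon-induced T cell chemokine, had 6.89, 3.80 and 2.61 CPM in APX3330 libraries, against 13.2, 18.7 and 53.4 CPM in saline D48 libraries (adjusted p = 0.00418). The chemokine that rose was Ccl28, made by colon epithelium, at 205.3, 246.8 and 234.7 CPM in APX3330 against 169.1, 137.9 and 140.0 CPM in saline D48 (log2 fold change 0.62 ± 0.137, adjusted p = 0.00608). Without APX3330 replicate 2, 6 chemokine genes were called lower, and 5 with both pancreas-bearing libraries set aside. Of 23 interferon-stimulated genes 4 fell, 17.4% against the background of 19.7%, namely Ifit1bl1, Irf1, Gbp2 and Ifit2, and 9 were called lower without saline D48 replicate 1.

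Macrophage and dendritic cell genes fell in 13 of 22 cases, 59.1% against 19.7% of all genes called, with 0 rises and a median of -1.05. C1qa, C1qb and C1qc, the complement C1q chains made by tissue macrophages, had 34.7 to 56.1, 44.6 to 48.2 and 40.3 to 47.4 CPM in APX3330 libraries, against 101.7 to 112.1, 99.7 to 114.4 and at least 84.6 CPM in saline D48 libraries. All 3 chains passed the test, with log2 fold changes of -1.25 ± 0.178, -1.18 ± 0.153 and -1.10 ± 0.171 (adjusted p = 0.000426, 0.000230 and 0.000742). The lysosomal marker Cd68 fell by 1.06 ± 0.169 (adjusted p = 0.000898) and the IgG receptor Fcgr3 by 1.04 ± 0.165 (adjusted p = 0.000809). Adgre1, the macrophage marker F4/80, had 30.5, 28.9 and 21.8 CPM in APX3330 and 46.6, 31.5 and 38.2 CPM in saline D48, which did not pass (adjusted p = 0.128). With both pancreas-bearing libraries set aside, 8 members were called lower.

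Calls among lymphocyte genes moved with single libraries. B cell genes took 0.0252%, 0.0223% and 0.0200% of counts in APX3330 libraries, against 0.0442%, 0.0176% and 0.153% in saline D48 libraries, where replicate 3 was the highest and replicate 2 lay under every APX3330 library. Of 16 tested B cell genes 11 were called lower, 68.8% against 19.7% of all genes. Only 1 of them, the antigen receptor subunit Cd79a, had groups that did not overlap. The number called was 0 without saline D48 replicate 3 or without APX3330 replicate 3. It was 1 without APX3330 replicate 2, 7 without APX3330 replicate 1 and 5 with the replicate block. Pax5, the B lineage transcription factor, had 8.99, 9.0 and 8.71 CPM in APX3330 libraries, against 23.5, 8.26 and 78.9 CPM in saline D48 libraries. Genes of lymphoid follicles such as Cxcr5, a follicle homing receptor, followed the same library, at 38.8 CPM in saline D48 replicate 3 and 3.89 to 13.2 CPM in the other 5. Of 20 T cell genes 11 were called lower, 55.0% against 19.7% of all genes. That number was 4 without saline D48 replicate 3, 6 without APX3330 replicate 2 and 7 without APX3330 replicate 3. Cd4, the helper T cell coreceptor, had 14.1, 12.5 and 9.38 CPM in APX3330 libraries, against 33.1, 24.3 and 38.5 CPM in saline D48 libraries (log2 fold change -1.42 ± 0.243, adjusted p = 0.00132). Ctla4, an inhibitory receptor of activated and regulatory T cells, fell by 1.88 ± 0.375 (adjusted p = 0.00321). The 9 tested cytotoxic lymphocyte genes gave 0 calls by edgeR and 1 by DESeq2, and 1 had an unadjusted p below 0.05 in edgeR, Prf1, the pore-forming protein perforin (adjusted p = 0.0510). Without saline D48 replicate 1, 3 were called lower, and without APX3330 replicate 1, 1. Of 9 MHC class II genes 7 were called lower, 77.8% against 19.7% of all genes. That number was 1 without saline D48 replicate 3 or without APX3330 replicate 3, and 2 without APX3330 replicate 2.

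Plasma cell genes were lower in 7 of 17 cases and higher in 1, 47.1% called against 19.7% of all genes. Igha, the IgA heavy chain of the gut, had 3510, 3620 and 2187 CPM in APX3330 libraries, against 8978, 5760 and 6973 CPM in saline D48 libraries (log2 fold change -1.22 ± 0.251, adjusted p = 0.00383). Prdm1, the plasma cell transcription factor, had 6.49, 8.54 and 6.03 CPM in APX3330 libraries, against 21.0, 15.7 and 18.8 CPM in saline D48 libraries (log2 fold change -1.40 ± 0.211, adjusted p = 0.000637). Ighg1, an IgG heavy chain, had 6.54 to 11.8 CPM in APX3330 and 48.7, 83.2 and 452.9 CPM in saline D48, again highest in replicate 3 (adjusted p = 0.00256). The member that rose was Pigr, the epithelial receptor that carries IgA into the lumen (log2 fold change 0.37 ± 0.113, adjusted p = 0.0326), and 0 were called higher with the replicate block or when any library other than saline D48 replicate 1 was left out. Of 9 tested mast cell genes 5 fell and 1 rose, 66.7% against 19.7% of all genes. Without APX3330 replicate 2, 3 were called lower, and without saline D48 replicate 3, 0 were called higher. The mucosal mast cell proteases Mcpt1 and Mcpt2 had 0.0667 to 0.338 and 0 to 0.134 CPM in APX3330, against 7.61 to 20.9 and 3.04 to 9.06 CPM in saline D48, and reads of these near-identical genes may be split between them. Hdc, which makes histamine, fell by 2.41 ± 0.472 (adjusted p = 0.00287). Kit, a receptor of mast cells and of the pacemaker cells of the gut wall, rose by 0.59 ± 0.149 (adjusted p = 0.0124).

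**Figure D3:**
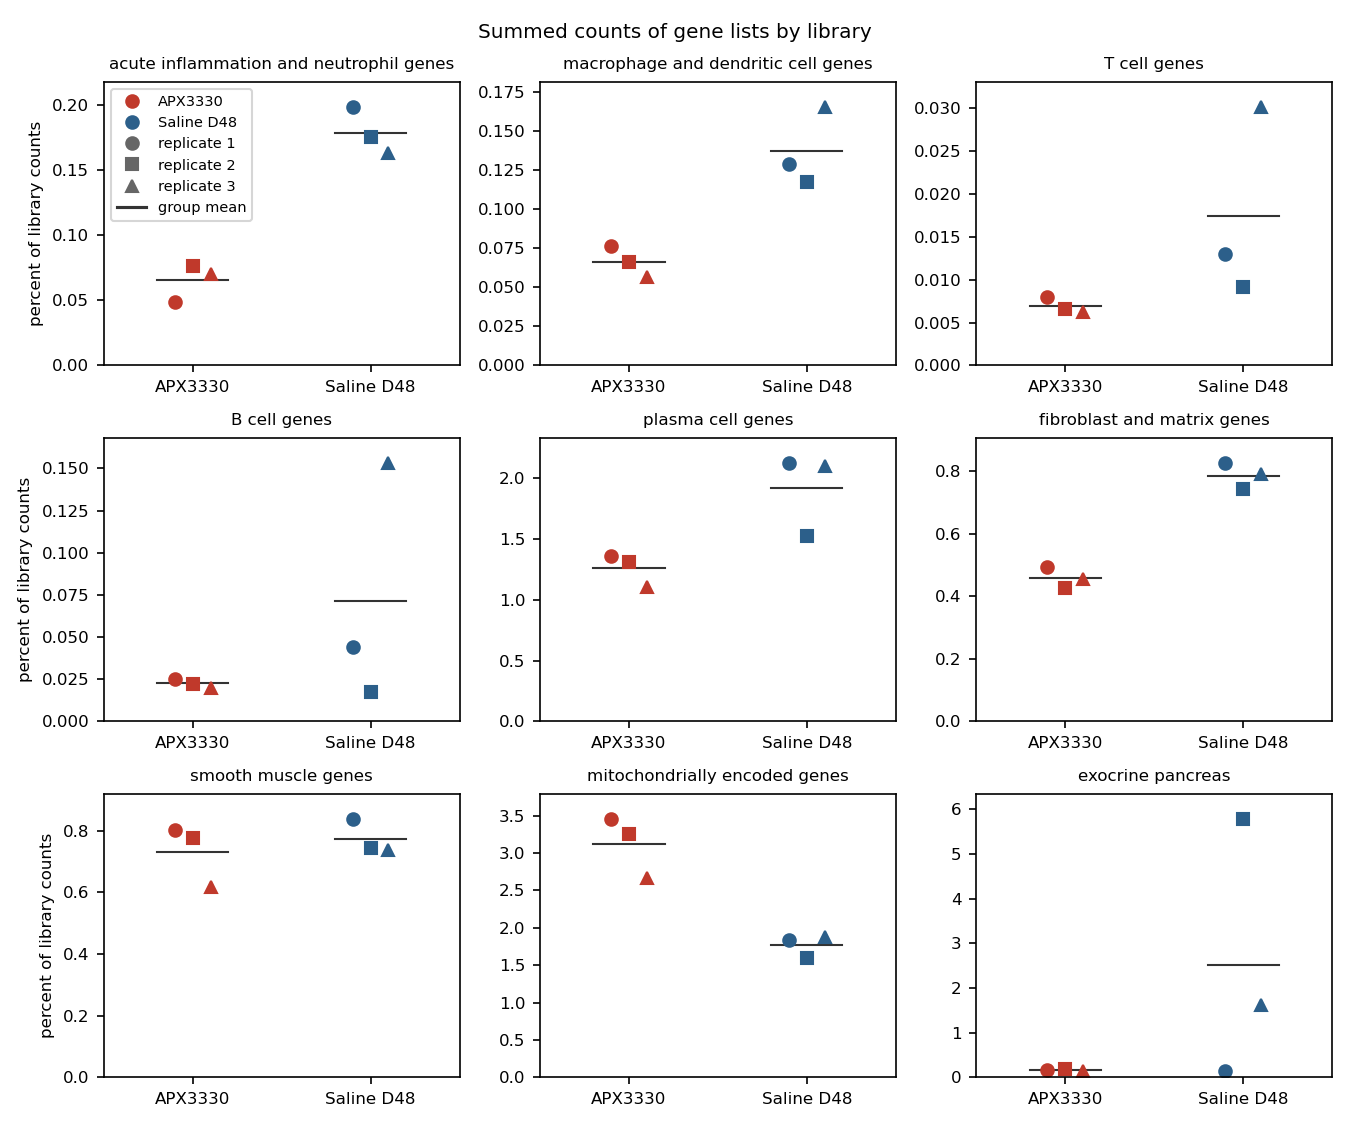
Percent of each library's counts taken by the summed genes of 9 lists, APX3330 (red) left of saline D48 (blue), replicates by symbol and bars at group means, with axes that start at 0. Acute inflammation genes and matrix genes separate the groups, the B cell share is 0.153% in saline D48 replicate 3 and at most 0.0442% in the other libraries, and the pancreas share is high in saline D48 replicates 2 and 3.

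In the epithelium, several genes of repair after injury were lower in APX3330 and several genes of ion transport higher. Of 19 tested genes of regenerating epithelium 10 fell and 0 rose, 52.6% against 19.7% of all genes, with a median of -1.01. Clu, clusterin, which marks revival stem cells, had 93.8, 64.8 and 74.2 CPM in APX3330 libraries, against 174.5, 295.7 and 353.1 CPM in saline D48 libraries (log2 fold change -1.82 ± 0.222, adjusted p = 0.000136). Ly6a, the repair marker Sca-1, had 274.3, 221.0 and 233.4 CPM in APX3330 libraries, against 329.6, 564.3 and 573.1 CPM in saline D48 libraries (log2 fold change -1.01 ± 0.199, adjusted p = 0.00295). Prss22, an epithelial serine protease, had 0 counts in APX3330 and 278 in saline D48, at least 89-fold lower when APX3330 is set at a floor of 3 counts for the 3 libraries together. With both pancreas-bearing libraries set aside, 5 members were called lower.

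Of 25 genes of colonocytes and ion transport 10 rose and 2 fell, against 9.41% called higher among all genes, and 13 were not called. The list's summed share of counts overlapped, at 0.818%, 1.04% and 1.30% in APX3330 libraries and 0.923%, 0.670% and 0.708% in saline D48 libraries. Without APX3330 replicate 1, saline D48 replicate 1 or saline D48 replicate 2, 1 was called lower. Car2, carbonic anhydrase 2, had 853.1, 949.5 and 1035 CPM in APX3330 libraries, against 498.1, 270.0 and 296.9 CPM in saline D48 libraries (log2 fold change 1.41 ± 0.171, adjusted p = 0.000136). The water channel Aqp4 had 717.5, 674.7 and 787.3 CPM in APX3330 libraries, against 330.9, 324.5 and 202.0 CPM in saline D48 libraries (log2 fold change 1.35 ± 0.170, adjusted p = 0.000190). Slc16a1, which carries butyrate and lactate, had 404.1, 401.2 and 440.9 CPM in APX3330 libraries, against 254.5, 190.3 and 210.6 CPM in saline D48 libraries (log2 fold change 0.93 ± 0.110, adjusted p = 0.000119). For these 3 transport genes no saline D48 library reached the lowest APX3330 library. The sulfate transporter Slc26a2 rose by 1.26 ± 0.212 (adjusted p = 0.00119) and the chloride channel Cftr by 1.14 ± 0.175 (adjusted p = 0.000695). Slc9a3, the sodium-hydrogen exchanger NHE3, had 168.6, 262.0 and 617.8 CPM in APX3330 libraries, against 92.5, 72.6 and 57.8 CPM in saline D48 libraries (4.71-fold higher, adjusted p = 0.00166). The markers of surface colonocytes Krt20, Aqp8, Car4 and Slc26a3 overlapped between the groups and did not pass (adjusted p = 0.232, 0.471, 0.920 and 0.0776). With both pancreas-bearing libraries set aside, 3 transport genes were called higher.

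Goblet cell genes moved both ways, with 5 of 19 higher and 2 lower, 36.8% called against 19.7% of all genes. Clca1, a mucus-processing protease and the most abundant transcript, had 35610, 30560 and 16000 CPM in APX3330 libraries, against 8767, 14850 and 5980 CPM in saline D48 libraries (log2 fold change 1.47 ± 0.289, adjusted p = 0.00288). Fcgbp, a mucus protein, and Muc2 were not called (adjusted p = 0.0867 and 0.703), and Muc2 averaged 11650 ± 1063 CPM in APX3330 and 10740 ± 1959 CPM in saline D48 (SD, n = 3 each). Tff3, a trefoil repair peptide, had 313.7, 352.8 and 234.9 CPM in APX3330 libraries, against 517.4, 569.3 and 616.2 CPM in saline D48 libraries (log2 fold change -0.92 ± 0.198, adjusted p = 0.00520). Goblet genes called lower numbered 1 when any 1 library was left out, or with the replicate block. Those called higher numbered 1 without saline D48 replicate 3, 2 without APX3330 replicate 1 and 3 without APX3330 replicate 2. Among 21 secreted antimicrobial and lectin genes, 3 rose and 7 fell, 47.6% against 19.7% of all genes. Of this list 5 were called higher without saline D48 replicate 2 or with the replicate block. Lypd8, which keeps flagellated bacteria off the colon surface, had 5685, 6379 and 6805 CPM in APX3330 libraries, against 9168, 8710 and 8594 CPM in saline D48 libraries (log2 fold change -0.49 ± 0.0917, adjusted p = 0.00221). Pglyrp1, a peptidoglycan-binding protein, fell by 0.97 ± 0.130 (adjusted p = 0.000285). Ang4, an antimicrobial ribonuclease, had 3168, 2629 and 789.1 CPM in APX3330 libraries, against 129.2, 882.9 and 84.6 CPM in saline D48 libraries, where replicate 2 overlapped with APX3330 (adjusted p = 0.0141). Reg3g, Lyz1 and Reg3b were also called lower and had their highest values in the pancreas-bearing saline D48 replicate 2, at 17.5, 79.0 and 127.2 CPM.

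Genes of proliferation showed little difference. Of 22 cell cycle genes 2 fell, the replication licensing factors Mcm3 and Mcm5, and 0 rose, 9.09% against 19.7% of all genes. None was called lower without APX3330 replicate 1, APX3330 replicate 2 or saline D48 replicate 3, and without saline D48 replicate 2 the count was 2 higher and 1 lower. The proliferation marker Mki67 had 198.7, 206.8 and 308.4 CPM in APX3330 and 187.6, 272.4 and 242.1 CPM in saline D48 (log2 fold change 0.02 ± 0.203, adjusted p = 0.95). Of 19 stem cell and Wnt target genes 1 rose and 7 fell, 42.1% against 19.7% of all genes. The count higher was 2 without saline D48 replicate 2 and 0 without any other single library. The stem cell marker Lgr5 had 8.65, 8.07 and 11.9 CPM in APX3330 and 4.76, 13.9 and 8.54 CPM in saline D48 (adjusted p = 0.902). Cd44, an adhesion receptor of crypt and immune cells, had 52.4, 46.4 and 52.6 CPM in APX3330 libraries, against 75.4, 78.4 and 102.1 CPM in saline D48 libraries (log2 fold change -0.76 ± 0.121, adjusted p = 0.000898). Notum, a secreted Wnt inhibitor, had 1 count in APX3330 and 226 counts in saline D48, mostly in replicate 2, at 1.06, 11.8 and 1.92 CPM. The Wnt inhibitor Wif1 and the Wnt target Sp5 had their highest values in the same library, at 28.7 and 6.60 CPM, against at most 1.27 and 0.338 CPM in APX3330. Of 15 enteroendocrine genes 1 rose, the glucagon gene Gcg, and 2 fell, the peptide hormone Pyy and Tac1, the gene of substance P, 20.0% against 19.7% of all genes. Gcg lay at the threshold (log2 fold change 0.62 ± 0.212, adjusted p = 0.0499). It was not called with DESeq2 size factors, the replicate block (adjusted p = 0.0660) or voom. With any library other than saline D48 replicate 1 left out it was not called either, at an adjusted p of 0.0714 to 0.201. Enteroendocrine genes called lower numbered 1 with the replicate block and without APX3330 replicate 1, APX3330 replicate 2 or saline D48 replicate 1. Without saline D48 replicate 1, 2 were called higher. Of 11 tuft cell genes 4 rose, namely Alox5, Dclk1, Sh2d6 and Trpm5, and 0 fell, 36.4% against 19.7% of all genes. Only 1 tuft cell gene was called without saline D48 replicate 2, saline D48 replicate 3, APX3330 replicate 1 or APX3330 replicate 2.

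A part of the genes of fatty acid oxidation and of xenobiotic metabolism was higher in APX3330. Of 23 tested genes of PPAR targets and fatty acid oxidation 11 rose and 0 fell, 47.8% against 19.7% of all genes (median log2 fold change 0.46). Pparg, the nuclear receptor that butyrate and bacteria induce in colonocytes, had 50.5, 47.7 and 45.9 CPM in APX3330 libraries, against 24.8, 21.9 and 24.0 CPM in saline D48 libraries (log2 fold change 1.03 ± 0.107, adjusted p = 4.60e-05). Cpt1a, which brings fatty acids into mitochondria, had 334.1, 371.4 and 396.6 CPM in APX3330 libraries, against 256.2, 220.6 and 199.6 CPM in saline D48 libraries (log2 fold change 0.70 ± 0.118, adjusted p = 0.00118). Hadhb and Acadl, enzymes of fatty acid oxidation, rose by 0.73 ± 0.110 and 0.51 ± 0.0906 (adjusted p = 0.000619 and 0.00166), and the fatty acid binding protein Fabp2 by 1.60 ± 0.264 (adjusted p = 0.00105). Groups were apart for each of these genes. With both pancreas-bearing libraries set aside, 2 members were called higher.

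Of 24 tested genes of xenobiotic metabolism 10 rose and 0 fell, and 5 were called higher with both pancreas-bearing libraries set aside. Ugt2b34 and Ugt2b35, which attach glucuronic acid to steroids and drugs, had 445.3, 462.0 and 448.6 CPM and 41.1, 39.3 and 36.4 CPM in APX3330 libraries, against 242.7, 197.6 and 171.0 CPM and 15.4, 15.3 and 9.70 CPM in saline D48 libraries. Their log2 fold changes were 1.15 ± 0.114 and 1.54 ± 0.154, both at an adjusted p of 3.71e-05. The cytochrome P450 genes Cyp2d26 and Cyp2c68 rose by 1.27 ± 0.163 and 1.40 ± 0.195 (adjusted p = 0.000205 and 0.000401). Called members were 41.7% of this list, against 19.7% of all genes. The xenobiotic receptor genes Nr1i2 and Ahr did not pass the test (adjusted p = 0.686 and 0.124). Sterol and fatty acid synthesis genes were called in 4 of 22 cases, 18.2% against 19.7% of all genes, 2 higher and 2 lower. Of the lower ones 0 were called without APX3330 replicate 2 and 1 with the replicate block or without any 1 saline D48 library, and of the higher ones 1 without APX3330 replicate 1, APX3330 replicate 3, saline D48 replicate 1 or saline D48 replicate 2. Acly, which makes cytosolic acetyl-CoA, rose by 0.58 ± 0.123 (adjusted p = 0.00444) and the lipogenic factor Srebf1 fell by 0.63 ± 0.159 (adjusted p = 0.0131).

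Transcripts of the mitochondrial genome were higher as a block. Of 10 tested genes 9 rose and 0 fell, 90.0% against 19.7% of all genes, with a median of 0.88. The summed share of counts was 3.45%, 3.26% and 2.67% in APX3330 libraries, against 1.84%, 1.59% and 1.88% in saline D48 libraries. The share was 2.11% to 3.37% in the other 9 libraries, so the saline D48 libraries held the lowest shares of the series. The cytochrome oxidase subunit gene mt-Co1 had 21280, 20240 and 16610 CPM in APX3330 libraries, against 11130, 9530 and 10380 CPM in saline D48 libraries (log2 fold change 0.91 ± 0.138, adjusted p = 0.000656). The NADH dehydrogenase subunit gene mt-Nd4 rose by 0.99 ± 0.159 (adjusted p = 0.000924) and mt-Co2 by 1.63 ± 0.187 (adjusted p = 8.71e-05). Nuclear copies of mitochondrial genes make single values uncertain, and mt-Co2 was listed at only 6.66 to 26.8 CPM. Of 24 nuclear genes of the respiratory chain 7 rose and 0 fell, while 3 were called higher without saline D48 replicate 3 or without APX3330 replicate 1, 4 without APX3330 replicate 2 and 0 with both pancreas-bearing libraries set aside. Cycs, cytochrome c, had 37.9, 37.1 and 44.2 CPM in APX3330 libraries, against 21.6, 13.1 and 19.1 CPM in saline D48 libraries (log2 fold change 1.15 ± 0.207, adjusted p = 0.00174), and the other rises were 0.29 to 0.48 on the log2 scale. Called members were 29.2% of the nuclear list, against 19.7% of all genes. The share of mitochondrial transcripts can also differ with RNA quality, for which the files hold no value, and its part was not tested.

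Stress genes outside inflammation differed little. Of 20 genes of the unfolded protein response 1 rose, the chaperone Dnajb9, and 1 fell, Creld2, 10.0% against 19.7% of all genes. The count lower was 2 with the replicate block and without APX3330 replicate 2 or saline D48 replicate 1, and 0 without any other single library. The ER chaperone Hspa5 had 579.9, 1278 and 1004 CPM in APX3330 and 1037, 1199 and 1009 CPM in saline D48 (adjusted p = 0.611). The 13 heat shock genes gave 0 calls by edgeR, with 0 at an unadjusted p below 0.05, and DESeq2 gave 0. Without APX3330 replicate 1, 2 were called higher, and without saline D48 replicate 1, 1 was called lower.

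Clock genes differed in both directions, with 3 of 19 higher and 5 lower, against 9.41% and 10.3% of all genes. Nr1d1, which encodes the repressor REV-ERB alpha (chr11:98767932-98775333), had 64.6, 122.0 and 98.7 CPM in APX3330 libraries, against 18.1, 31.4 and 11.4 CPM in saline D48 libraries (log2 fold change 2.23 ± 0.380, adjusted p = 0.00126). Its relative Nr1d2 had 64.7, 83.6 and 52.4 CPM in APX3330 libraries, against 19.9, 29.6 and 19.0 CPM in saline D48 libraries (log2 fold change 1.55 ± 0.256, adjusted p = 0.00106). The output factor Dbp rose by 1.70 ± 0.528 (adjusted p = 0.0344). The falls included Cry1, a core repressor of the clock, at 15.8, 14 and 20.1 CPM in APX3330 against 39.0, 33.2 and 38.1 CPM in saline D48 (log2 fold change -1.14 ± 0.195, adjusted p = 0.00127). Per2, another core repressor, fell by 0.97 ± 0.250 (adjusted p = 0.0142). These genes vary with the hour of day, which the labels do not give, so a difference in hour and a difference in treatment cannot be told apart. Clock genes called higher numbered 5 without APX3330 replicate 3. Those called lower numbered 2 without saline D48 replicate 3 or without APX3330 replicate 1, and 3 without saline D48 replicate 1 or without APX3330 replicate 3.

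**Figure D4:**
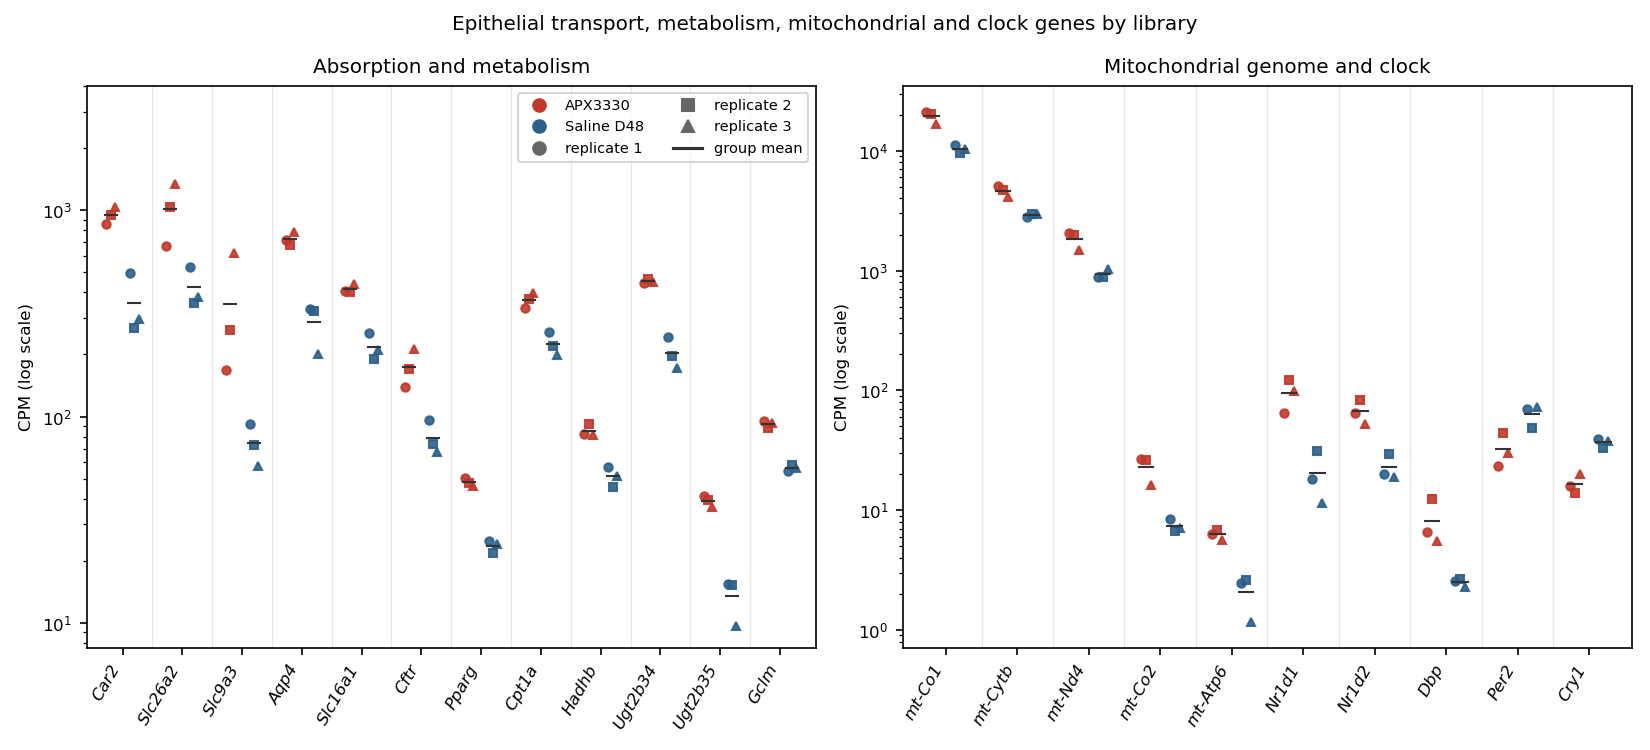
Levels in each library of genes of absorption and metabolism (left) and of the mitochondrial genome and the clock (right), as CPM on a log axis, APX3330 (red) left of saline D48 (blue), bars at group means. All genes of the left panel lie higher in APX3330, as do the mitochondrial genes, Nr1d1, Nr1d2 and Dbp, while Per2 and Cry1 lie lower.

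In the stroma, matrix genes were lower and smooth muscle genes were not. Of 25 fibroblast and matrix genes 18 fell and 0 rose, 72.0% against 10.3% of all genes, with a median of -0.84. Col1a1 and Col1a2, the chains of type I collagen, had 322.5, 249.1 and 304.5 CPM and 391.0, 316.0 and 336.7 CPM in APX3330 libraries, against 679.0, 631.5 and 581.1 CPM and 777.0, 740.8 and 665.9 CPM in saline D48 libraries. Their log2 fold changes were -1.11 ± 0.107 and -1.07 ± 0.0990 (adjusted p = 3.35e-05 and 2.70e-05). The basement membrane collagen Col4a1 fell by 0.96 ± 0.102 (adjusted p = 5.13e-05) and the matrix protein Sparc by 0.93 ± 0.102 (adjusted p = 6.45e-05). Mmp10, the protease stromelysin-2, had 2.09, 1.20 and 0.536 CPM in APX3330 libraries, against 10.9, 13.0 and 14.9 CPM in saline D48 libraries (log2 fold change -3.33 ± 0.526, adjusted p = 0.000809). The matrix protein genes Postn, periostin, and Lum, lumican, did not pass (adjusted p = 0.852 and 0.0767). The count was 17 to 19 when any 1 library was left out, and 15 with both pancreas-bearing libraries set aside. Of 15 smooth muscle genes 1 fell, the actin-binding Lmod1 (log2 fold change -0.61 ± 0.126, adjusted p = 0.00400), 6.67% against 19.7% of all genes. Their summed share was 0.802%, 0.775% and 0.616% of counts in APX3330 against 0.837%, 0.743% and 0.737% in saline D48.

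Of 17 tested endothelial genes 7 fell and 0 rose, 41.2% against 19.7% of all genes. Selp, the adhesion molecule P-selectin, had 1.15, 1.87 and 1.27 CPM in APX3330 libraries, against 8.53, 8.33 and 8.42 CPM in saline D48 libraries (log2 fold change -2.55 ± 0.331, adjusted p = 0.000231). The receptor Tie1 fell by 0.86 ± 0.174 (adjusted p = 0.00352), while Kdr, the main receptor for vascular growth factor, had 27.1 to 37.6 CPM in APX3330 and 27.5 to 33.0 CPM in saline D48 (adjusted p = 0.926). Endothelial genes called lower numbered 2 without APX3330 replicate 2, and 4 without APX3330 replicate 3 or without saline D48 replicate 3. With both pancreas-bearing libraries set aside, which leaves 1 saline D48 library, most endothelial calls were lost. The same held for the adipocyte, MHC class II, T cell, goblet cell, tuft cell, and stem cell and Wnt target lists. Of 13 tested adipocyte genes 7 fell, 53.8% against 19.7% of all genes, with a median of -2.01. That number was 4 without saline D48 replicate 1, and 1 without saline D48 replicate 3, APX3330 replicate 2 or APX3330 replicate 3. The fat cell enzyme gene Cfd, adipsin, had 7.43, 0.667 and 0.402 CPM in APX3330 libraries, against 21.6, 15 and 33.9 CPM in saline D48 libraries (adjusted p = 0.0252). Of 16 genes of enteric neurons and glia 2 fell, Ret, the receptor of enteric neurons, and the neuropeptide Vip, 12.5% against 19.7% of all genes. Without saline D48 replicate 3, 1 was called. Among lists for tissue outside the mucosa, 20 of 22 tested exocrine pancreas genes and 1 of 15 squamous epithelium genes (0 without APX3330 replicate 3 or without saline D48 replicate 3) were called lower, and 0 of 13 skeletal muscle genes and 0 of 7 small intestine genes were called in either direction by edgeR. In each of the skeletal muscle and small intestine lists 1 gene had an unadjusted p below 0.05, and DESeq2 called 2 and 1. Of 13 lymphoid follicle genes 7 were called lower, 53.8% against 19.7% of all genes. One of them was Gp2, a gene of follicle epithelium and of pancreatic acinar cells, at 0.335 to 1.08 CPM in APX3330 libraries and 0.463, 558.7 and 140.7 CPM in saline D48 libraries, high in both pancreas-bearing libraries. The count was 2 without saline D48 replicate 3 or without APX3330 replicate 3, and 4 without APX3330 replicate 2.

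**Figure D5:**
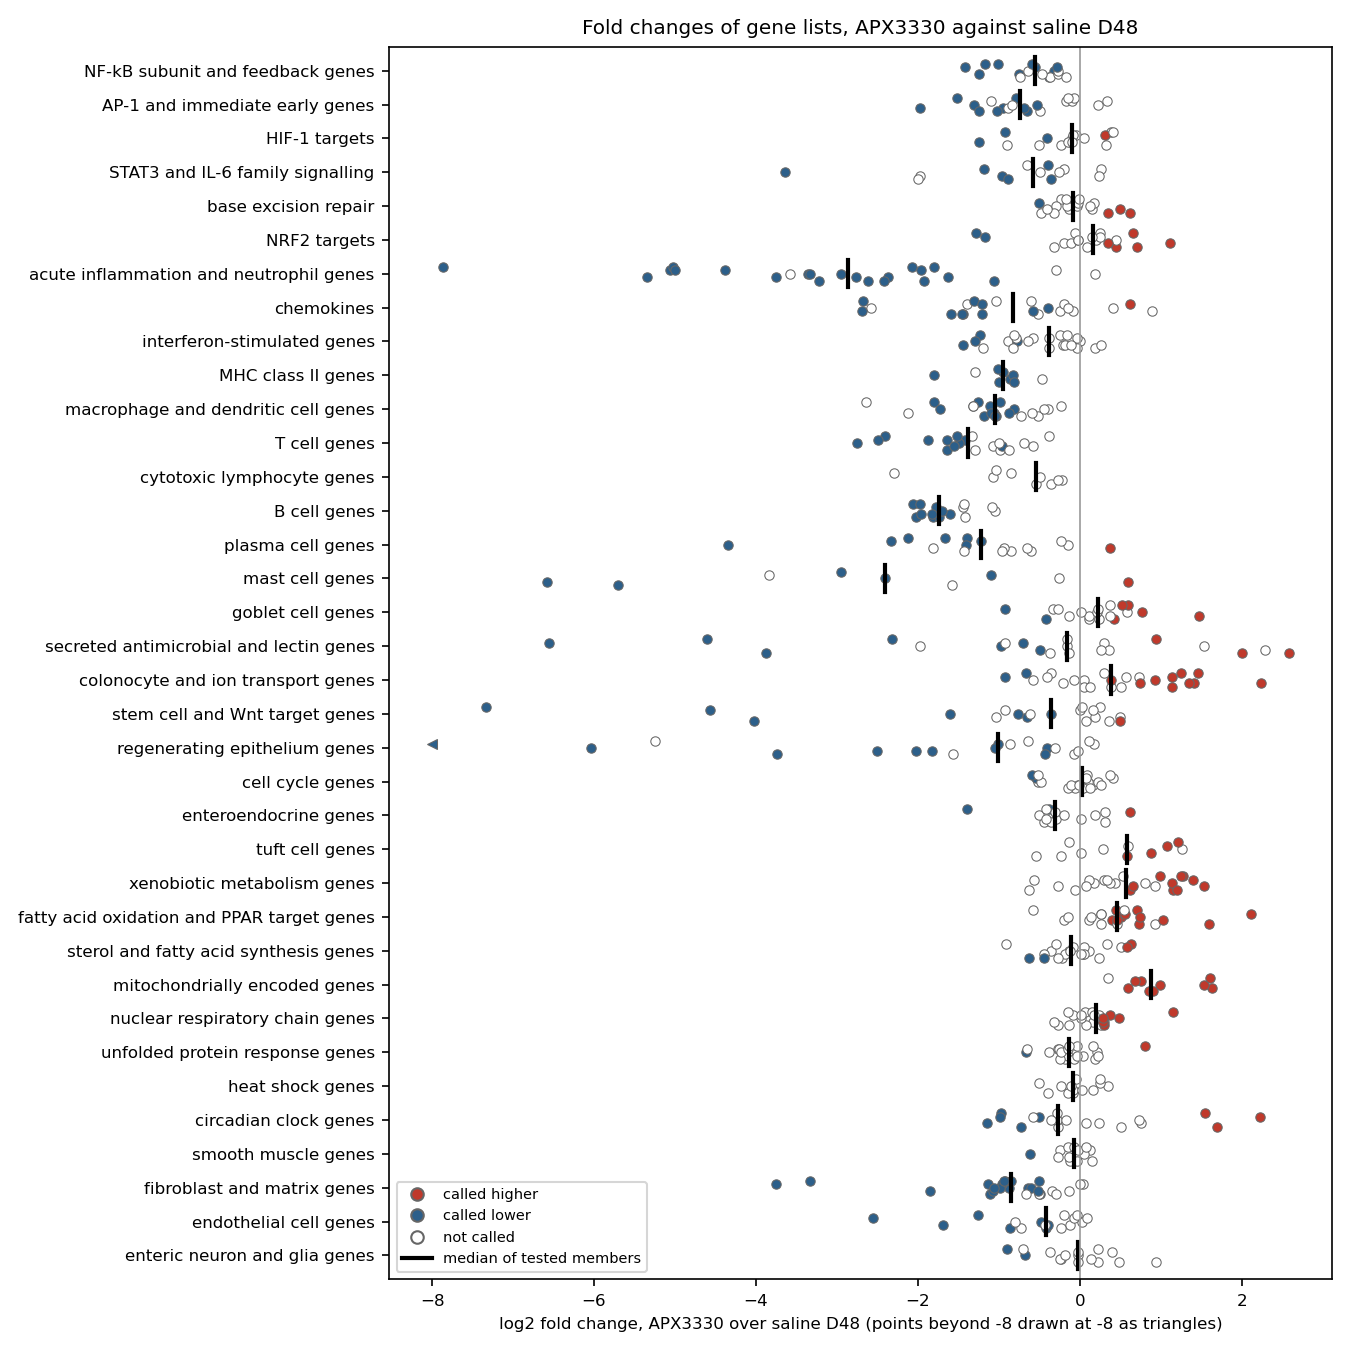
Log2 fold change of each tested member of the gene lists, APX3330 over saline D48, with called members filled (red higher, blue lower), open points not called and black bars at list medians. Acute inflammation genes lie farthest to the left with a median of -2.86, matrix genes at -0.84 and mitochondrially encoded genes to the right at 0.88, while cell cycle, heat shock and smooth muscle genes lie about 0.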

How the data were processed

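RNA of mouse colon was sequenced from libraries made with the SMARTER mRNA-Seq kit, per the labels' protocols. The authors deposited 1 table of read counts per gene for 15 libraries, without normalization, and no source used here names the aligner, the counter or the strand setting. Genes were filtered with filterByExpr, scaled with TMM and tested with edgeR 4.0.16 (quasi-likelihood F test, all 15 libraries in 5 groups, R 4.3.3), as APX3330 minus saline D48. A gene was called at a Benjamini-Hochberg adjusted p below 0.05 over all 18038 tested genes. CPM values use TMM library sizes, and intervals cover counting error only. Errors not named SD are standard errors of the log2 fold change, derived from the test as its size over the square root of F. Single values of 3 libraries against 3 cannot reach an exact permutation p below 0.1. The edgeR test was tested on simulated data. The alternatives were DESeq2 1.42.0, limma 3.58.1 voom, other scaling and filters, a replicate block and leaving out libraries.

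The members and lists were chosen with earlier results of these data known. Named genes were the 12 largest called rises and falls whose groups did not overlap and that passed limits on level and on pancreatic transcripts, the leading 5 called or tested genes of each list by p, and defining markers. The other genes named (Adgre1, Ahr, Ang4, Apoa4, Aqp8, Car4, Cxcl1, Cxcl2, Dbp, Fos, Hspa5, Igha, Il1rn, Il6, Kdr, Krt20, Lgr5, Lum, Mki67, Mmp10, Nfkbia, Nos2, Nox1, Nr1i2, Pigr, Postn, Prss22, Reg3b, S100a8, Slc26a3, Socs3, Tnf) and those chosen for the figures were picked after their values were seen. A few genes that met the rule are not reported here.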

Additional observations from a re-analysis of the deposited data

How the results depend on the processing

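The count of 3557 calls (1697 higher, 1860 lower) stayed within 1.5 times with the DESeq2 test, voom, scaling by DESeq2 size factors, all genes kept whatever their counts, removal of pancreatic genes and a smooth muscle score as covariate. Same-numbered libraries of the 2 groups did not deviate together (correlations of -0.14, -0.03 and -0.08). The labels do not say that they are paired, and whether they share a batch was not tested. A fit with the replicate block called 3283 genes, and list counts that it moved by over 1.5 times stand beside those lists. With only the 6 libraries in the fit, 2021 genes were called (916 higher, 1105 lower). With 1 saline D48 library left, after setting aside both with pancreatic transcripts, 851 were called (321 higher, 530 lower), and the log2 fold change of 11 called genes changed sign, among them the pancreatic genes Cpb1 (0.60), Gp2 (0.480) and Rnase1 (0.018). Requiring a log2 fold change of at least 1 in size left 1046 genes (215 higher, 831 lower), which moved the share of rises to 20.6%, against 47.7%. Leaving out each library in turn gave 2129 to 3209 calls, with 1040 to 1583 higher and 1089 to 1626 lower. The causes of these changes were not tested. Depth, at 14948499 to 16452308 counts a library, limits genes with a few counts, such as S100a9 and Notum.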
